A study of Mus musculus with 30 samples.

Results

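The 41 interferon-induced genes described here are genes that cells switch on after interferon binds its receptor. They were chosen by name from the 24459 genes of the count table, and all 41 had 10 or more counts in at least 3 libraries. They comprise 17 antiviral effectors (Mx, Ifit and Oas families, Ifi44, Isg20, Rsad2, Xaf1, Rtp4, Cmpk2 and Samd9l), 8 guanylate-binding proteins, 4 immunity-related GTPases, 3 transcription factors of the response (Irf7, Irf9 and Stat2), 3 sensors of nucleic acid (Ddx58, Ifih1 and Zbp1), the ISG15 system (Isg15 and Usp18) and 4 others (Ifi35, Nmi, Parp14 and Trim30a). The mice were C57BL/6 and carried the G158R substitution in Aiolos, a zinc finger factor encoded by Ikzf3, on neither allele (WT, Ikzf3+/+), 1 allele (het, Ikzf3+/m) or both (homo, Ikzf3m/m). RNA was sequenced from bone marrow cells sorted as pre-pro B (B220+ AA4.1+ IgM- CD43+ CD24-) or pre-B (B220+ AA4.1+ IgM- CD43- CD24+), in 3 libraries for each genotype and stage, 18 in all. Regions bound by Aiolos and by its relative Ikaros came from thymocytes and from cultured pre-B cells. The latter were expanded out of B220+ IgM- marrow on Tst-4 stroma with IL-7, SCF and Flt3L. These data had 1 library per antibody, cell type and genotype, WT or mutant, so they carry no replicate error. Their titles say only WT or mut and name no het group. The labels used here give no age and do not say that replicate libraries came from separate mice, so p-values measure the spread between these libraries.

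Type I interferons act through a receptor made of Ifnar1 and Ifnar2, whose kinases Jak1 and Tyk2 act on STAT2. STAT2 and IRF9 are parts of the complex ISGF3, which binds the interferon-stimulated response element (ISRE), whereas interferon gamma acts at the gamma-activated site (GAS) and is the main inducer of guanylate-binding proteins and immunity-related GTPases. Plasmacytoid dendritic cells keep Irf7 and other genes of this set high without infection, and type I interferon is known to restrain the growth of B cell precursors in IL-7.

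The libraries were checked against their labels before the genotypes were compared. Levels are library-scaled counts (CPM) after TMM normalisation over the 18 libraries, which are not scaled for gene length and are compared within a gene only. Pre-B libraries held early B lineage transcripts at a summed 2817 to 4758 CPM. In the pre-pro B libraries the same 8 markers summed to 234.8 to 480.7 CPM, and plasmacytoid dendritic cell markers were abundant: Siglech averaged 695 CPM and Runx2 1157 CPM in WT, against 0.327 and 0.808 CPM in WT pre-B cells. The cells labelled pre-pro B thus carried the defining transcripts of a second cell type, and in such bulk samples fewer cells of a type and less RNA per cell cannot be told apart. All WT libraries had XX chromosomes by Xist and Y-linked counts. At each stage 2 of 3 homo libraries (replicates 1 and 3) and 1 of 3 het libraries (replicate 2) had XY. Gene counts ran from 1888871 in pre-B homo replicate 3 to 9048055, and the pooled homo pre-pro B libraries held 1.48 times the counts of the pooled WT ones. The count of Actb, an abundant gene, lay between 2335 and 2650 in all pre-pro B libraries whatever their depth. In pre-B libraries it lay between 1500, in homo replicate 3, and 2506, while gene counts ran from 1888871 to 6757040. At both stages folds of abundant genes between libraries of unequal depth are thus less certain than their counting error.

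RefSeq promoter windows, from 250 bases before to 50 after an annotated start in the GRCm38.p6 assembly, were found for 29 of the 41 genes. The ISRE core, searched as GAAA-NN-GAAA on both strands, was in a window of 17 of these 29 genes (58.6%), against 3.99% of the 27025 genes of the promoter table and 3.44% of its windows. The GAS core, TTCNNNGAA, was in 8 of 29 (27.6%), against 9.55% of all genes, and the Ikaros core TGGGAA on either strand was in 12 of 29 (41.4%), against 28.3%. Where both fell in 1 window they could overlap: an Ikaros core shared bases with an ISRE core in Gbp3. A match describes the letters only. The windows of 7 genes on which the results below turn are printed with ISRE matches in capitals; overlapping matches merge, and a match to the opposite strand reads TTTC-NN-TTTC. Oas1a and Trim30a are shown as genes that fell in homo cells of both stages, and Isg15 as a gene with 3 ISRE matches whose level was not called between genotypes. Gbp2, Gbp7 and Gbp5 belong to the guanylate-binding cluster of chromosome 3, in which Gbp2 and Gbp7 rose and Gbp5 had the Ikaros region of highest fold. Ifit2 is shown because its level fell in pre-B cells and Ikaros regions lay over the gene, and its window holds no ISRE match.
Oas1a, chr5:120907476-120907775 (minus strand).
Oas1a: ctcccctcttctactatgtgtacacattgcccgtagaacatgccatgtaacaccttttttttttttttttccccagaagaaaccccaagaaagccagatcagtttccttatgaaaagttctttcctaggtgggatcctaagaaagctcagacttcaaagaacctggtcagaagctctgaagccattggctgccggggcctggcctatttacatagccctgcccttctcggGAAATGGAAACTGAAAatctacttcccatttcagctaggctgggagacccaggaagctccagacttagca
Isg15, chr4:156200769-156201068 (minus strand).
Isg15: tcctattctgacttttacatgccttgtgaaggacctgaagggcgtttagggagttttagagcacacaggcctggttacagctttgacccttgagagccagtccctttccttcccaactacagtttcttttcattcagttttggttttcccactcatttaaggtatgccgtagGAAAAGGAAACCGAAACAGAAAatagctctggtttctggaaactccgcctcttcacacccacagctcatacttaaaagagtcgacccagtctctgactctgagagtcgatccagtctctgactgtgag
Trim30a, chr7:104465144-104465443 (minus strand).
Trim30a: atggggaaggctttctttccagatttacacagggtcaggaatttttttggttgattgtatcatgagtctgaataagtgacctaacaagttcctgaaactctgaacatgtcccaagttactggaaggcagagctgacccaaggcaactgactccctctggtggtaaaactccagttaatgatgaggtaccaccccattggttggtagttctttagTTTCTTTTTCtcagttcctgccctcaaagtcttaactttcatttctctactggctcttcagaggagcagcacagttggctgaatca
Ifit2, chr19:34550444-34550743 (plus strand).
Ifit2: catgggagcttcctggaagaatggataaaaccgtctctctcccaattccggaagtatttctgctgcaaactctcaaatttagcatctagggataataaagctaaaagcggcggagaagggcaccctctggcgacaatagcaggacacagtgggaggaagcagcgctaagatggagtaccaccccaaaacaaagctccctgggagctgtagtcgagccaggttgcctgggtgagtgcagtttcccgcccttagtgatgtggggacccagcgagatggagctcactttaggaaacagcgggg
Gbp2, chr3:142620413-142620712 (plus strand).
Gbp2: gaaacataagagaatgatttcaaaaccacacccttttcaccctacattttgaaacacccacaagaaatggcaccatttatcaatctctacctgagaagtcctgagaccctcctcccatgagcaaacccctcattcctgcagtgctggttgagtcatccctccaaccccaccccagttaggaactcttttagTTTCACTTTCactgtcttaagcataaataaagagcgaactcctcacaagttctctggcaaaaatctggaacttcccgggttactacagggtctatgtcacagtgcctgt
Gbp7, chr3:142530086-142530385 (plus strand).
Gbp7: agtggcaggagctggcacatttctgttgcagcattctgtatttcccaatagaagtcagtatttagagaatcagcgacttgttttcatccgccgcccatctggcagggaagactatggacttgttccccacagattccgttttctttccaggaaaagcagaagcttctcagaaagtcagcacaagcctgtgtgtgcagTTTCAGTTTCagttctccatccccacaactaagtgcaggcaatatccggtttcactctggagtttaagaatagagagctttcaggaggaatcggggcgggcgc
Gbp5, chr3:142496684-142496983 (plus strand).
Gbp5: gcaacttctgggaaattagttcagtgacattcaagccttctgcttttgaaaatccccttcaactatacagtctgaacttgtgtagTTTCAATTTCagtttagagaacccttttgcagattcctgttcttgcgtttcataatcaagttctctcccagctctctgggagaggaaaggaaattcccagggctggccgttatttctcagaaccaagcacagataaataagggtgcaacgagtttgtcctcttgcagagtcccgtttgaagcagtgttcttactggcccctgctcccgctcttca

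In pre-B cells 13 genes of the set were called between homo and WT. Homo libraries held less Mx1, Mx2, Ifit2, Oas1a, Oas2, Isg20 and Cmpk2, all antiviral effectors, and more of the GTPases Iigp1, Gbp2, Gbp7 and Gbp9. Of the 40 genes tested (Gbp10 was too low), 4 rose and 9 fell in homo against WT by edgeR's quasi-likelihood F test at an adjusted p (Benjamini-Hochberg) under 0.05. Over all 11411 genes tested, 7.42% rose and 8.45% fell. The median log2 fold change of the 40 genes was −0.12, against 0.02 over all genes. Antiviral effectors accounted for 7 of the 9 falls and for no rise among their 17 genes, whereas all 7 guanylate-binding proteins tested had a positive fold change and 3 were called. Every homo library was below every WT library in 16 of the 40 genes (22.3% of all genes) and above in 7 (20.3%).

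Mx1 and Mx2, dynamin-like GTPases that block viruses, gave the deepest falls. Mx1 measured 12.6, 12.4 and 15.3 CPM in WT pre-B libraries, 4.36, 1.73 and 1.60 CPM in het and 1.43, 0.154 and 1.20 CPM in homo. Every mutant library lay below every WT library, and the homo libraries below the het ones. The log2 fold change of Mx1 was −3.97 ± 0.54, adjusted p = 0.000779 in homo and −2.35 ± 0.42, adjusted p = 0.00851 in het (± SE throughout). The pooled counts were 243 in WT against 12 in homo, a ratio of 16.3 with an exact 95% counting interval of 9.16 to 32.0.
Mx2 measured 12.9, 11.6 and 12.6 CPM in WT, 4.21, 0.987 and 3.20 CPM in het and 0.634, 0.463 and 0 CPM in homo. Again the genotypes did not overlap. Its change was −4.63 ± 0.51, adjusted p = 0.000226 in homo and −2.06 ± 0.35, adjusted p = 0.00683 in het, with pooled counts of 224 in WT and 7 in homo, a ratio of 25.7 (12.3 to 64.8). RefSeq lists both genes as transcribed pseudogenes in this strain's assembly, and no promoter window is printed for them.

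Ifit2, whose protein binds RNA and restrains translation, measured 28.8, 30.4 and 29.2 CPM in WT pre-B cells, 9.51, 9.62 and 12.3 CPM in het and 9.19, 12.3 and 10.8 CPM in homo. Het and homo libraries covered the same low range. The fall was −1.45 ± 0.18, adjusted p = 0.000424 in homo and −1.49 ± 0.17, adjusted p = 0.000904 in het. The difference of homo from het was 0.04 ± 0.19, adjusted p = 0.978.
Oas1a, a synthetase that makes the oligoadenylate activating RNase L, measured 5.59, 7.16 and 7.57 CPM in WT, 4.05, 2.22 and 3.49 CPM in het and 2.38, 1.70 and 1.80 CPM in homo. WT libraries lay above all mutant libraries, which overlapped each other. Its fall was −1.75 ± 0.30, adjusted p = 0.00320 in homo and −1.02 ± 0.26, adjusted p = 0.0495 in het.
Oas2, a second synthetase, measured 24.3, 33.0 and 32.9 CPM in WT, 30.7, 8.88 and 16.4 CPM in het and 9.99, 4.48 and 5.41 CPM in homo. The het libraries spread across both other groups. Its fall in homo was −2.12 ± 0.44, adjusted p = 0.00912, and with a term for chromosomal sex the adjusted p rose to 0.0596.

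Isg20, an exonuclease acting on RNA, measured 5.91, 5.73 and 6.77 CPM in WT, 2.65, 3.45 and 2.61 CPM in het and 1.90, 2.93 and 1.80 CPM in homo, with no overlap between WT and either mutant. It fell by 1.39 ± 0.27, adjusted p = 0.00581 on the log2 scale in homo and changed by −1.11 ± 0.25, adjusted p = 0.0257 in het. Cmpk2, a mitochondrial nucleotide kinase, behaved otherwise: 74.5, 72.4 and 70.6 CPM in WT, 79.6, 68.1 and 78.0 CPM in het and 47.7, 38.1 and 37.3 CPM in homo. Only the homo libraries stood apart from WT. Its change was −0.81 ± 0.13, adjusted p = 0.00221 in homo against WT and −0.86 ± 0.13, adjusted p = 0.0111 in homo against het, while het against WT gave 0.05 ± 0.12, adjusted p = 0.856. Zbp1 and Trim30a fell outside the effectors. Zbp1, a sensor of Z-form nucleic acid, averaged 21.2 ± 4.57 CPM (SD, n = 3) in WT and 5.05 ± 3.47 CPM in homo (−1.83 ± 0.45, adjusted p = 0.0195), and Trim30a, a regulator of Toll-like receptor signalling, 207 ± 2.66 and 132 ± 24.9 CPM (−0.66 ± 0.16, adjusted p = 0.0195).

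The rises were in GTPases that attack the vacuoles of intracellular microbes. Iigp1, an immunity-related GTPase, measured 2.72, 4.66 and 4.03 CPM in WT, 12, 4.19 and 4.36 CPM in het and 48.5, 43.4 and 66.1 CPM in homo. Homo libraries lay far above both other groups, which overlapped. The rise was 3.77 ± 0.40, adjusted p = 0.000184 against WT and 2.89 ± 0.37, adjusted p = 0.00517 against het, and het against WT gave 0.88 ± 0.43, adjusted p = 0.313. Its neighbours in function, Irgm1, Irgm2 and Igtp, were not called in homo, with log2 fold changes of 0.13, 0.41 and 0.13.
Gbp2 measured 11.8, 14.9 and 17.9 CPM in WT, 26.7, 32.1 and 17.3 CPM in het and 47.2, 46.3 and 67.9 CPM in homo, a rise of 1.83 ± 0.26, adjusted p = 0.00102. The homo libraries stood above all others, and het overlapped WT. Gbp7 measured 21.6, 29.4 and 33.8 CPM in WT, 19.5, 17.0 and 12.2 CPM in het and 51.2, 74.6 and 99.2 CPM in homo. Here het lay below WT and homo above it: the change was 1.38 ± 0.27, adjusted p = 0.00612 in homo against WT, −0.81 ± 0.28, adjusted p = 0.135 in het against WT and 2.19 ± 0.28, adjusted p = 0.00499 in homo against het. Gbp9 averaged 163 ± 5.07 CPM in WT and 282 ± 83.3 CPM in homo (0.78 ± 0.20, adjusted p = 0.0266). Gbp5, Gbp4, Gbp6 and Gbp3 had log2 fold changes of 0.42, 0.41, 0.28 and 0.07 and were not called. Guanylate-binding genes are near-identical in places, so the counting may divide their reads unevenly.

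**Figure D1:**
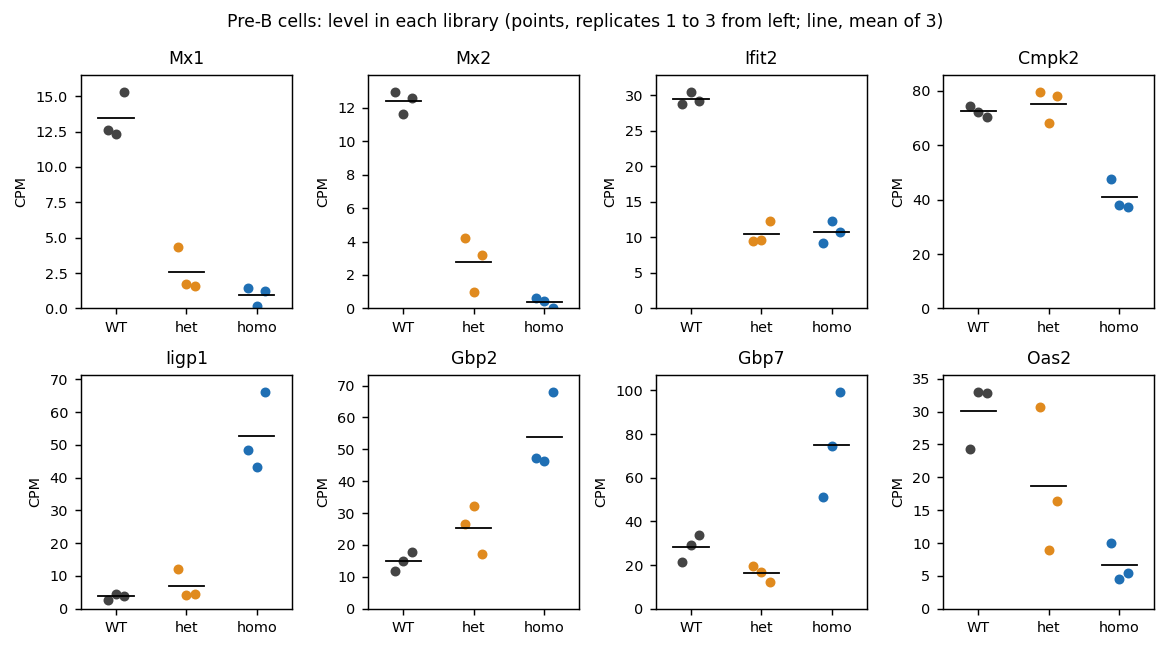
CPM of 8 interferon-induced genes in each of the 9 pre-B libraries (points), by genotype, with the group mean as a line. Mx1, Mx2, Ifit2 and Oas2 are lowest in homo or in both mutants, and Iigp1, Gbp2 and Gbp7 are highest in homo.

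With 1 mutant allele, the test called 7 of the 40 genes tested in pre-B cells, of which 1 rose and 6 fell, against 2.8% and 3.38% of all genes. Beside Ifit2, Mx1, Mx2, Isg20 and Oas1a, given above, Oas3 fell and Gbp4 rose. Oas3, the third synthetase, measured 4.32, 5.02 and 3.71 CPM in WT, 2.49, 1.23 and 1.16 CPM in het and 2.54, 3.40 and 3.0 CPM in homo (−1.38 ± 0.33, adjusted p = 0.0362 in het and −0.54 ± 0.32, adjusted p = 0.295 in homo). The het libraries were the lowest of the 3 genotypes. Gbp4 measured 60.7, 53.9 and 62.7 CPM in WT, 106, 115 and 76.1 CPM in het and 82.6, 68.5 and 86.5 CPM in homo (0.74 ± 0.16, adjusted p = 0.0253 in het). Neither mutant overlapped WT. Both genotypes were set against the same WT libraries. Homo against het called 3 genes, with Gbp7 and Iigp1 higher and Cmpk2 lower, against 0.806% of all genes higher and 1.09% lower. Of the homo calls against WT, 9 of 13 held in all 14 alternatives that keep both sexes, and the calls of Oas2, Zbp1, Trim30a and Gbp9 did not. Of the 7 het calls, those of Ifit2, Mx1 and Mx2 held in all 14. Het against WT gave 3 calls without any 1 WT library, 4 without het replicate 1 or 2 and 5 without het replicate 3. Homo against het gave 5 without het replicate 2. Over all genes these fits called 336 to 756 in het against WT and 182 in homo against het. Homo against WT gave 13 calls without homo replicate 3, the shallowest library, with 2097 over all genes. In the XX libraries alone (3 WT, 2 het and 1 homo, chosen after seeing the data) it gave Mx1 at −6.27, Mx2 at −4.69 and Iigp1 at 3.51.

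In the pre-B libraries the 10 markers of NK and innate lymphoid cells summed to 11.76 to 12.90 CPM in WT, 14.65 to 23.43 CPM in het and 29.79 to 36.06 CPM in homo. Most of this sum in homo lay in Klrb1c and Prf1 (10.1 and 10.9 CPM), while Gzma, Gzmb, Ncr1 and Eomes were at or near 0 (means up to 1.17 CPM). Of the 10 NK markers 3 were testable in pre-B cells, and 2 were called higher in homo (7.42% of all genes). Plasmacytoid dendritic cell markers summed to 1078 to 1162 CPM in WT and 935.6 to 1029 CPM in homo. Siglech and Runx2 were near 0 in WT pre-B cells, as given above. The sum there came from other genes of the list, so it does not measure dendritic cell content. Between WT pre-pro B and WT pre-B cells 11 of the 12 markers were called lower (33.3% of all genes), with a median log2 difference of −7.56. Only 8 of these 12 markers were testable in pre-B cells, with 1 called higher and 2 lower in homo (7.42% and 8.45% of all genes). The part of these shifts in the levels above was not tested.

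In cells sorted as pre-pro B the set was lower on a broad front in homo. Of the 41 genes, 37 had a negative fold change against WT; 20 fell, among them 10 of the 17 antiviral effectors with Irf7, Irf9 and Usp18, and 2 rose, Gbp2 and Gbp3. Over all 12188 genes tested, 10.4% fell and 12% rose. The median log2 fold change of the set was −0.66, against 0.01 over all genes. Falls over all genes were more common at higher levels. At a mean of 0.619 to 13.7 CPM 2.72% fell, and at 107 to 1720 CPM 27.9% did, with a median of −0.10. At that higher level 7 of 9 genes of the set fell, with a median of −0.40. At the lower level 2 of 7 fell, with a median of −1.23, against 0.16 over all genes. The 10.4% is thus a low background for abundant genes of the set. In 29 of the 41 genes every homo library was below every WT library, which held for 21.8% of all genes, and in 2 every homo library was above (24.6% of all genes).

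Samd9l, an interferon-induced restriction factor, measured 235, 233 and 235 CPM in WT, 214, 186 and 228 CPM in het and 173, 148 and 127 CPM in homo. WT, het and homo formed a descending order without overlap, and homo against WT gave −0.66 ± 0.10, adjusted p = 0.00328. Oasl1, an OAS-like protein that in mice restrains Irf7 translation, measured 41.7, 45.3 and 44.4 CPM in WT, 35.9, 17.6 and 41.1 CPM in het and 21.1, 14.1 and 15.9 CPM in homo. Its fall was −1.37 ± 0.29, adjusted p = 0.0146, with het replicate 2 among the homo values.
Irf7, the factor that drives interferon alpha genes, measured 303, 310.0 and 281 CPM in WT, 299, 164 and 225 CPM in het and 183, 164 and 166 CPM in homo (−0.81 ± 0.19, adjusted p = 0.0207). All homo libraries were below WT, and het replicate 2 again sat with homo. Irf9, the DNA-binding part of ISGF3, measured 217, 218 and 204 CPM in WT, 209.5, 176 and 191 CPM in het and 175, 176 and 171 CPM in homo, a smaller fall of −0.30 ± 0.06, adjusted p = 0.00727. Stat2, its partner, measured 479.9, 494 and 465 CPM in WT, 562, 392 and 440.3 CPM in het and 416, 414 and 400.3 CPM in homo and was not called (−0.24 ± 0.11, adjusted p = 0.128).

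Ifi35, an interferon-induced leucine zipper protein, measured 75.7, 87.9 and 88.8 CPM in WT, 73.1, 70.4 and 76.4 CPM in het and 68.4, 57.8 and 65.7 CPM in homo (−0.41 ± 0.08, adjusted p = 0.00552). Trim30a measured 493, 507 and 482 CPM in WT, 516, 360.4 and 419.8 CPM in het and 369, 337 and 348 CPM in homo (−0.50 ± 0.11, adjusted p = 0.00909). In both genes all homo libraries lay below WT. In Ifi35 the het libraries lay above homo, and 1 of them was within the WT range, and in Trim30a they spanned the gap. The guanylate-binding proteins moved in both directions. Gbp6 measured 56.3, 66.6 and 66.8 CPM in WT, 51.8, 34.4 and 55.2 CPM in het and 39.4, 31.8 and 32.2 CPM in homo (−0.89 ± 0.17, adjusted p = 0.00715). Gbp4 measured 235, 265 and 282 CPM in WT, 247, 200.1 and 242 CPM in het and 200.4, 199.8 and 211 CPM in homo (−0.37 ± 0.08, adjusted p = 0.0115), and Gbp10 measured 12.4, 22.5 and 18.8 CPM in WT, 10.1, 4.43 and 13.7 CPM in het and 6.28, 4.85 and 6.43 CPM in homo (−1.63 ± 0.37, adjusted p = 0.0154). These 3 genes, all of the chromosome 5 cluster, were below WT in every homo library. Gbp2, of the chromosome 3 cluster, measured 4.13, 4.33 and 6.54 CPM in WT, 5.69, 5.99 and 5.19 CPM in het and 8.22, 8.46 and 15.0 CPM in homo, a rise of 1.06 ± 0.27, adjusted p = 0.0177. Its neighbour Gbp3 rose by 0.47 ± 0.13, adjusted p = 0.0259, and Gbp7 and Gbp5 gave 0.47 and 0.22 without a call.

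The other genes that fell are given by their group means or range. Usp18, the protease that removes ISG15 and restrains the receptor, averaged 115 ± 8.39 CPM (SD, n = 3) in WT and 55.2 ± 12.7 CPM in homo (−1.07 ± 0.25, adjusted p = 0.0236). Mx1 averaged 175 ± 11.2 and 105 ± 15.3 CPM (−0.75 ± 0.22, adjusted p = 0.0453), and Mx2 57.4 ± 3.89 and 36.9 ± 6.66 CPM (−0.65 ± 0.18, adjusted p = 0.0296). Cmpk2, Xaf1, Irgm1, Oas1a, Ifi44, Isg20, Oasl2 and Ddx58 fell by log2 fold changes between −1.44 (Ifi44) and −0.37 (Ddx58). Ifit3, Ifit1, Isg15 and Rsad2 had log2 fold changes of −1.44, −1.33, −1.10 and −1.20 but varied more between libraries and were not called, with adjusted p values of 0.0562, 0.0609, 0.0828 and 0.157. Iigp1, Irgm2, Igtp, Gbp9, Nmi, Rtp4, Zbp1, Oas2, Oas3, Ifih1, Ifit2 and Parp14 were not called either. The calls shared with pre-B cells in the same direction, 7 of 22 here and 7 of 13 there, were Mx1, Mx2, Oas1a, Isg20, Cmpk2 and Trim30a lower and Gbp2 higher, and none was called in opposite directions. Over all genes, 2730 of 12188 were called here and 1811 of 11411 there. The number shared among those was not counted, so the overlap has no background.

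**Figure D2:**
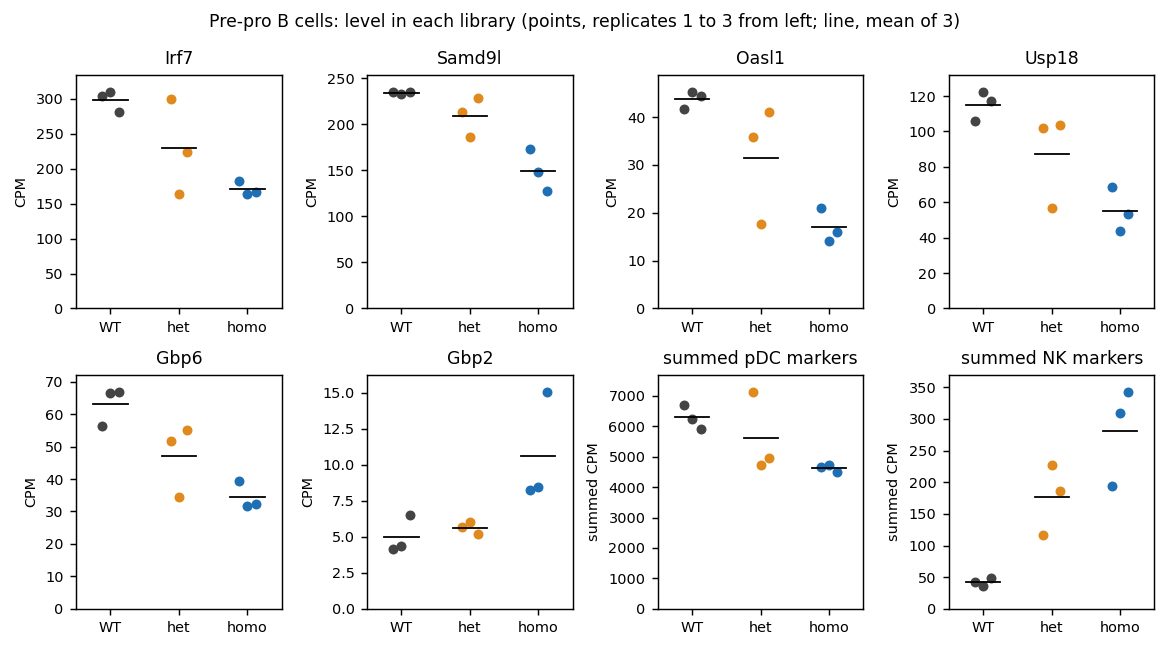
CPM of 6 interferon-induced genes and the summed CPM of plasmacytoid dendritic cell and NK cell markers in each of the 9 pre-pro B libraries (points), by genotype, with the group mean as a line. Homo libraries lie below WT in Irf7, Samd9l, Oasl1, Usp18, Gbp6 and the dendritic cell sum, and above WT in Gbp2 and the NK sum.

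Markers of other cells moved with genotype in these libraries. The 12 plasmacytoid dendritic cell markers summed to 5923 to 6709 CPM in WT, 4727 to 7123 CPM in het and 4497 to 4737 CPM in homo; all 12 had negative fold changes in homo and 6 were called lower. The 10 NK markers summed to 36.13 to 48.42 CPM in WT, 116.4 to 226.5 CPM in het and 193.9 to 342.4 CPM in homo, and all 10 were called higher. Myeloid markers summed to 184.7 to 196.4 CPM in WT and 248.6 to 298.1 CPM in homo, with 6 of 8 tested called higher. None of the 8 early B markers was called, and 1 of 4 T lineage markers tested was lower. The haemoglobin genes Hba-a1 and Hbb-bs were at 0 in WT and homo means. Over all genes tested 10.4% were called lower and 12% higher in homo. At a mean of 107 to 1720 CPM, a range that holds the WT levels of Siglech and Runx2, 27.9% were called lower. The part of the marker shifts and of depth in the lower levels of the set was not tested. With log2 library size as a covariate no gene of the set was called, and with a term for chromosomal sex 2 were. Leaving out 1 library gave 10, 7 and 13 calls (WT replicates 1, 2 and 3) or 16, 7 and 7 (homo replicates 1, 2 and 3) in place of 22. Over all genes the calls went from 2730 to 213, to 605 and, without 1 library, to 1112 to 2059. Homo libraries held 8592557 to 9048055 gene counts and WT ones 5443344 to 6492192, so library size went with genotype between them. In the XX libraries alone, 3 WT, 2 het and 1 homo, the median log2 fold change of the set in homo against WT was −0.96. There Gbp2 gave 0.74, Gbp3 0.50, Irf9 −0.29 and Ddx58 −0.44. No single call held in all 14 alternatives that keep both sexes, the most stable being Samd9l, in 13. In raw counts, which carry the deeper sequencing of homo, 13 of the 20 genes that fell were lower in homo than in WT and 7 were higher.

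In the het pre-pro B libraries no gene of the set was called against WT by edgeR or DESeq2, 8 had an unadjusted p under 0.05 by edgeR, and 38 of 41 had a negative fold change with a median of −0.27. Of all 12188 genes tested, 2505 had an unadjusted p under 0.05 by edgeR and 6015 had a negative fold change, with a median of 0.0032. All genes tested gave 0.435% higher and 0.123% lower calls. The het libraries disagreed: replicate 2 had a summed level of 2668 CPM over the 41 genes, within the homo range of 2627 to 3020 CPM, and replicates 1 and 3 had 3915 and 3710 CPM, near the WT range of 3752 to 4242 CPM. Replicate 2 was the XY het library, with 8771793 gene counts. Replicates 1 and 3 were XX, with 4683715 and 8395882. The part of chromosomal sex and depth in this difference was not tested. Homo against het gave no edgeR call either, with 11 genes at an unadjusted p under 0.05 and 1 gene called by DESeq2, beside 0% and 0.0164% of all genes called higher and lower. Of all 12188 genes, 1470 had an unadjusted p under 0.05 by edgeR in this contrast, and DESeq2 called 48. Without het replicate 2, 11 genes were called lower in homo than in het, where 223 of all 12163 genes were called in either direction. Without het replicate 1, 5 were called lower in het than in WT, where 1901 of all 12347 genes were called in either direction.

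**Figure D3:**
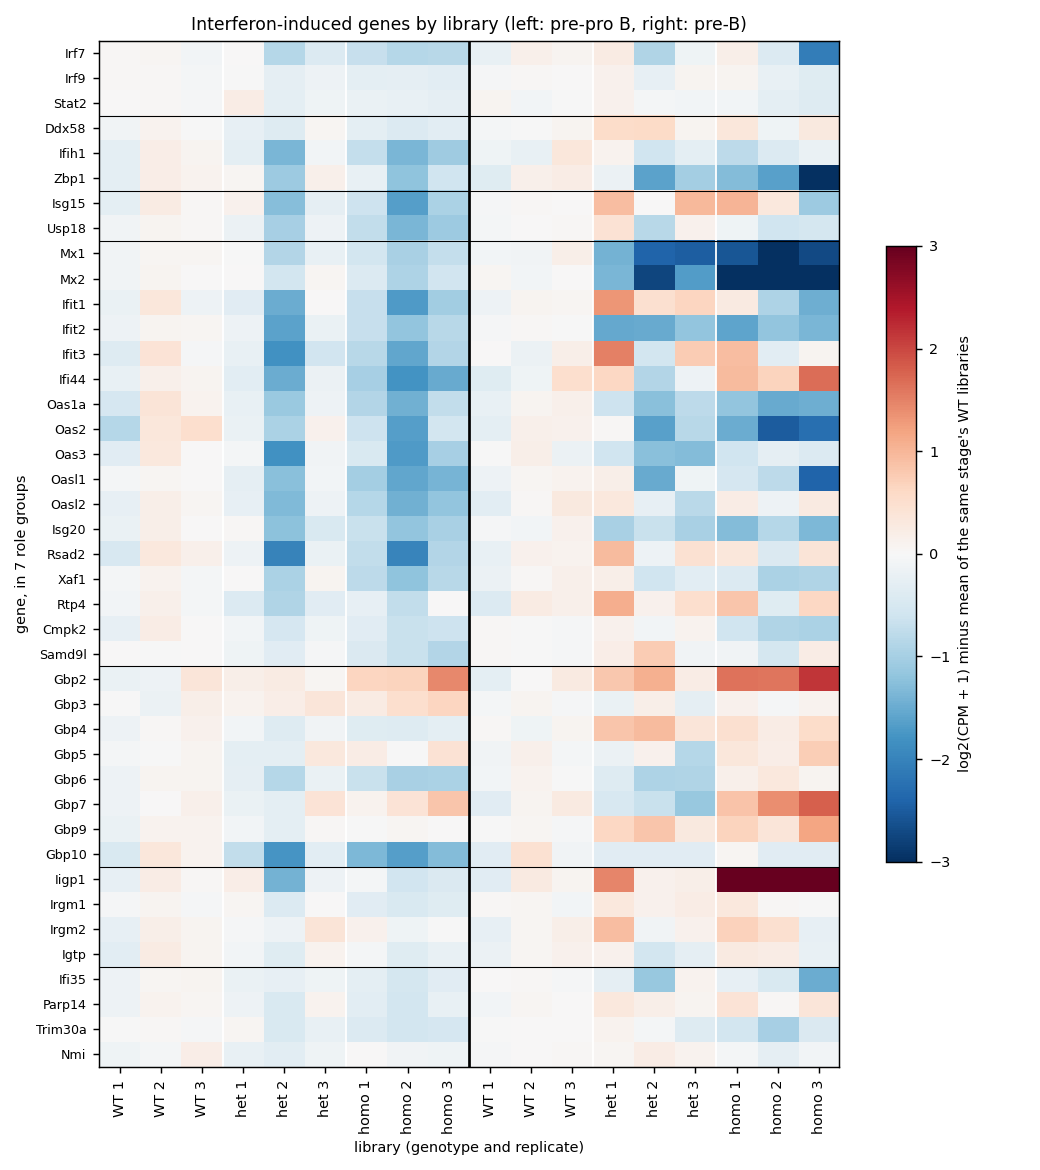
Heat map of the 41 genes (rows, by role) in the 18 libraries (columns): log2(CPM + 1) minus the mean of the same stage's WT libraries, with colours saturating at 3 either way. In pre-pro B cells the homo columns and het replicate 2 are mostly below WT, and in pre-B cells Mx1 and Mx2 are below and Iigp1 above WT.

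Without the mutation, the set was mostly lower in pre-B than in pre-pro B cells. In WT, 24 of 41 genes were lower and 7 higher in pre-B cells, with a median log2 difference of −1.10, where 33.3% and 31% of all 12440 genes were lower and higher. All 31 calls held in all 13 alternatives. Irf7 went from 303, 310.0 and 281 CPM to 13.3, 17.7 and 16.6 CPM (−4.23 ± 0.29, adjusted p = 5.41e-10). Ifi44 went from 110.0, 144 and 136 CPM to 2.88, 3.58 and 6.12 CPM (−4.94 ± 0.41, adjusted p = 7.42e-09). Gbp6 went from 56.3, 66.6 and 66.8 CPM to 2.56, 3.04 and 2.74 CPM (−4.50 ± 0.21, adjusted p = 4.11e-12). The stages did not overlap in any of these 3. Iigp1, likewise without overlap, went from 64.6, 88.7 and 77.9 CPM to 2.72, 4.66 and 4.03 CPM (−4.35 ± 0.43, adjusted p = 9.23e-08). Gbp10 had 322 pooled counts against 5 in WT pre-B cells, a ratio of 63.8 (exact 95% counting interval 27.1 to 198). Its counts were 202 against 0 in het, at least 53.6-fold higher by a floor of 3 counts over the group, and 160 against 2 in homo, a ratio of 43.2 (11.8 to 360.0). These genes fell at a transition over which plasmacytoid dendritic cell markers fell too, in sum from 5923 to 6709 CPM to 1078 to 1162 CPM in WT. Most of the 12 markers fell further than this sum: their median log2 difference was −7.56, and 11 were called lower. The part of that shift was not tested.

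The 5 largest rises were those of Ddx58, Oas2, Gbp2, Rtp4 and Gbp9. Ddx58, which encodes the RNA sensor RIG-I, went from 23.8, 27.5 and 25.5 CPM in WT pre-pro B cells to 161, 166 and 179 CPM in WT pre-B cells (2.72 ± 0.16, adjusted p = 6.22e-11). Oas2 rose by 1.46 ± 0.42, adjusted p = 0.00562, from 5.07, 12.8 and 14.5 CPM to the pre-B values above. Gbp2 went from 4.13, 4.33 and 6.54 CPM to 11.8, 14.9 and 17.9 CPM (1.55 ± 0.31, adjusted p = 0.000242). Stages were apart in all of these. Rtp4, a chaperone of receptors whose gene overlaps Masp1 in the annotation, went from 4.13, 4.99 and 4.20 CPM to 7.19, 12 and 11.1 CPM (1.18 ± 0.37, adjusted p = 0.00901). Gbp9 went from 77.2, 95.7 and 95.8 CPM to 162, 169 and 159 CPM (0.86 ± 0.17, adjusted p = 0.000224). Parp14, an ADP-ribosyltransferase, was at 232, 280.0 and 269 and then 272, 301 and 288 CPM (0.14 ± 0.13, adjusted p = 0.366), and Samd9l at 235, 233 and 235 and then 285, 279 and 272 CPM (0.25 ± 0.19, adjusted p = 0.254). Neither was called between stages.

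In het, 25 genes were lower and 11 higher in pre-B than in pre-pro B cells (35.8% and 32.4% of all genes), and in homo 21 were lower and 8 higher (36.4% and 32.7%). The log2 difference of Iigp1 between stages was −0.25 ± 0.33, adjusted p = 0.526 in homo, against −4.35 ± 0.43, adjusted p = 9.23e-08 in WT. For WT, het and homo in turn it was −3.70, −5.70 and −6.95 in Mx1 and −2.21, −4.10 and −6.20 in Mx2. The test of the difference itself, the homo effect in pre-B minus that in pre-pro B cells, called 9 genes, 7 with a higher and 2 with a lower effect in pre-B (5.17% and 9.37% of all genes). Iigp1 gave 4.1 ± 0.56, adjusted p = 6.16e-05, Mx2 −3.99 ± 0.54, adjusted p = 5.56e-05, Mx1 −3.25 ± 0.57, adjusted p = 0.000750 and Ifi44 2.52 ± 0.59, adjusted p = 0.00673. For the het effect 1 gene was called higher and 2 lower (1.85% and 3.8% of all genes), Gbp4 at 0.93 ± 0.19, adjusted p = 0.00666, Mx2 at −1.89 ± 0.36, adjusted p = 0.00402 and Mx1 at −2.00 ± 0.43, adjusted p = 0.00891. The homo interaction gave 5 calls without pre-pro B WT replicate 2 or 3, pre-pro B homo replicate 2 or pre-B WT replicate 1 or 3. The het one gave 5 without pre-B het replicate 3. Over all genes these fits called 1365 to 1626 in place of 1809 for homo, and 879 in place of 703 for het.

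**Figure D4:**
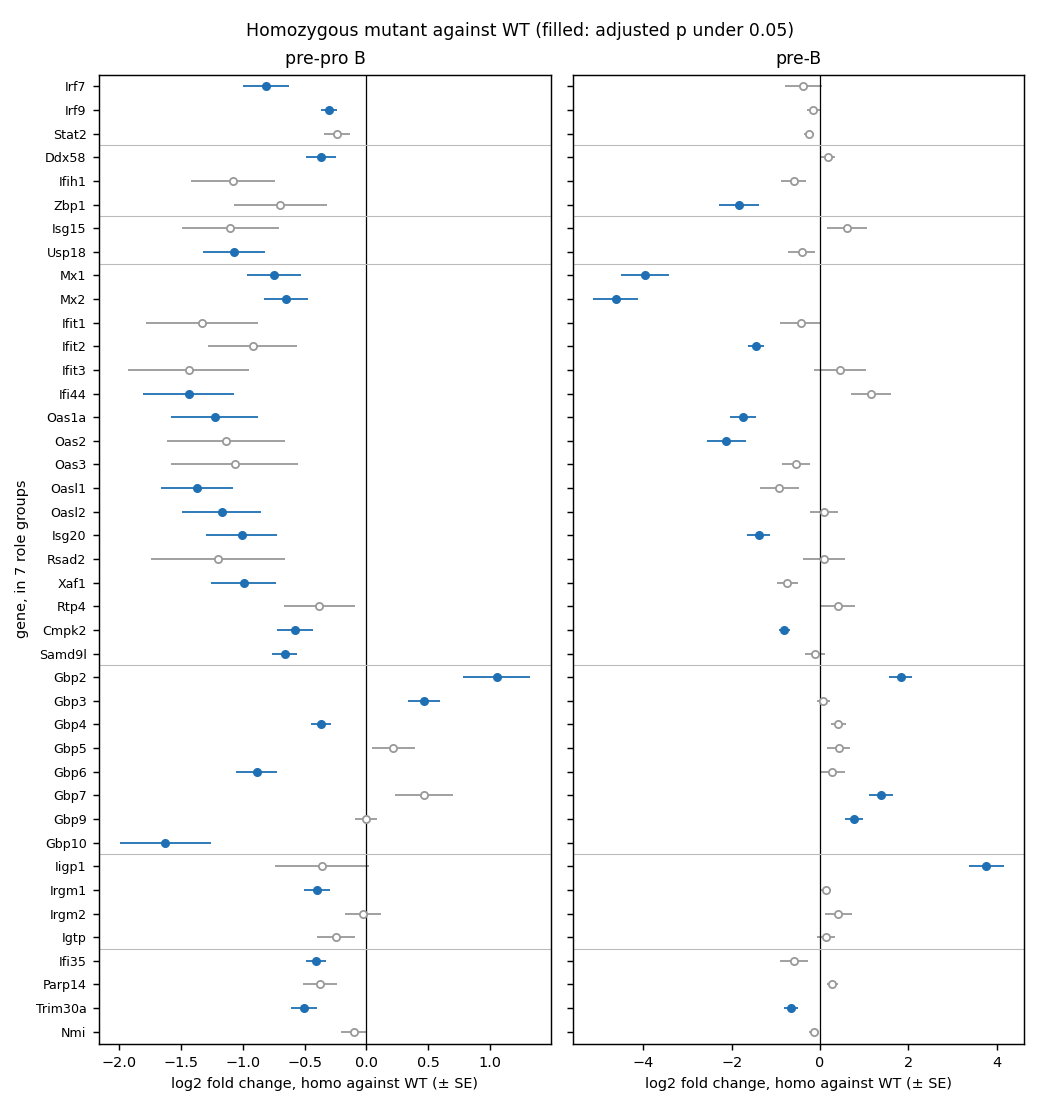
Log2 fold change of homo against WT (± SE) for each of the 41 genes, by role, in pre-pro B and in pre-B cells; filled points have an adjusted p under 0.05 and Gbp10 was not tested in pre-B cells. The antiviral effectors lie left of 0 in pre-pro B cells, and the guanylate-binding proteins lie right of 0 in pre-B cells.

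Genes around the set, from lists of the interferon pathway, were taken next. Of 8 interferon ligands only Ifng, the type II interferon, was testable, and only in pre-pro B cells. It averaged 0.170 ± 0.0163 CPM in WT and 3.47 ± 1.43 CPM in homo (4.22 ± 0.62, adjusted p = 0.00213), with pooled counts of 3 and 95, a ratio of 21.5 (7.13 to 106); Gzma and Gzmb, NK granule proteases, went from 1.60 to 51.7 CPM and from 0.319 to 49.9 CPM in the same libraries. Pre-B homo libraries held no Ifng count. In homo against WT, 12% of all genes rose and 10.4% fell in pre-pro B cells, and 7.42% and 8.45% in pre-B cells. Of 6 receptor chains, Ifngr1 rose (0.41 ± 0.08, adjusted p = 0.00698) and Ifnar2 (−0.30 ± 0.07, adjusted p = 0.00972) and Il10rb (−0.32 ± 0.07, adjusted p = 0.00698) fell in homo pre-pro B cells, and Ifnar1 rose in homo pre-B cells (0.51 ± 0.11, adjusted p = 0.0104). Among the receptor kinases and other IRFs, Irf5 (−0.36 ± 0.06, adjusted p = 0.00397) and the kinase gene Tyk2 (−0.23 ± 0.05, adjusted p = 0.0123) fell in homo pre-pro B cells.

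Of the 10 nucleic acid sensors and adaptors tested in homo pre-pro B cells, 5 fell and 1 rose, where 10.4% and 12% of all genes did, and with log2 library size as a covariate the calls over all genes went from 2730 to 213: the endosomal receptor Tlr9 went from 416 ± 23.2 to 288 ± 18.2 CPM (−0.54 ± 0.09, adjusted p = 0.00301), Tlr7, Tlr3, Myd88 and their chaperone Unc93b1 had log2 fold changes of −0.49, −1.76, −0.19 and −0.49, and Mb21d1, which encodes the DNA sensor cGAS, rose (0.71 ± 0.17, adjusted p = 0.0185). Among all genes at a mean of 107 to 1720 CPM, the level of Tlr9, Tlr7 and Unc93b1, 27.9% fell in homo pre-pro B cells. In homo pre-B cells 3 of the 9 sensors and adaptors tested fell and 2 rose, where 8.45% and 7.42% of all genes did. Dhx58, which encodes the RIG-I-like protein LGP2, went from 30.6 ± 1.5 to 4.98 ± 0.807 CPM (−2.60 ± 0.25, adjusted p = 9.72e-05), and Tlr9 from 80.6 ± 4.96 to 13.0 ± 8.52 CPM (−2.46 ± 0.36, adjusted p = 0.00127). Ticam1, the adaptor of Tlr3, fell as well (−1.09 ± 0.20, adjusted p = 0.00509). Tmem173, which encodes STING, went from 85.2 ± 2.35 to 163 ± 14.7 CPM (0.94 ± 0.11, adjusted p = 0.000314), and Mb21d1 from 2.99 ± 0.326 to 8.84 ± 2.54 CPM (1.64 ± 0.33, adjusted p = 0.00707). Of the 7 inhibitors of interferon signalling, the phosphatase gene Ptpn6 fell at both stages (−0.48 ± 0.12, adjusted p = 0.0180 in pre-pro B and −0.40 ± 0.09, adjusted p = 0.0122 in pre-B cells), and Socs3, from 1.79 ± 0.617 to 5.71 ± 3.39 CPM, rose in pre-B cells (1.86 ± 0.44, adjusted p = 0.0171). Of 6 enzymes that edit or degrade nucleic acid, Adar, the RNA editing deaminase, fell from 424 ± 12 to 332 ± 9.09 CPM in pre-pro B (−0.37 ± 0.07, adjusted p = 0.00568) and from 251 ± 5.97 to 66.2 ± 18.7 CPM in pre-B cells (−1.88 ± 0.25, adjusted p = 0.000719). Trex1 (−0.42 ± 0.09, adjusted p = 0.0101) and Samhd1 (−0.31 ± 0.08, adjusted p = 0.0157) fell and Rnaseh2b (0.42 ± 0.08, adjusted p = 0.00498) rose in pre-pro B cells. The shares of all genes given above for each stage apply to these lists too. In pre-pro B cells Adar lay at the level where 27.9% of genes fell.

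Ikaros regions within 5 kb of a gene of the set were counted in the authors' deposited peak lists, in mm10 coordinates. The WT pre-B list of 3683 regions reached 8 of the 41 genes (8.99% of all 24343 genes placed) and the mutant pre-B list of 8609 regions reached 13 (19.3%). In thymocytes the WT list of 3572 regions reached 7 genes (9.57%) and the mutant list of 8221 reached 14 (26.1%), 6 of them at a deposited −log10 q-value of at least 5. Lists of such unequal length give no test of gain. All 8 WT pre-B genes, Gbp3, Gbp4, Gbp5, Gbp6, Gbp9, Ifit2, Rtp4 and Samd9l, were also in the mutant pre-B list, and all 7 WT thymocyte genes in the mutant thymocyte list. Aiolos lists of 431 and 24 regions in WT and mutant pre-B cells and 25 in WT thymocytes reached none of the 41 genes (0.702%, 0.0452% and 0.0452% of all genes), and the 184 regions of mutant thymocytes reached 1, Nmi (0.423%).

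Among genes of the set, Gbp5 held the Ikaros region of highest deposited fold over background in both WT lists. It lay at chr3:142497217-142497834 in WT pre-B cells (fold 19.4) and chr3:142497083-142497880 in mutant pre-B cells (fold 17.8), inside the gene just after the printed window. In thymocytes the region of Gbp5 was chr3:142496737-142497938 (fold 22.1) in WT and chr3:142496573-142497913 (fold 14.3) in the mutant, and there it overlapped the window, which holds 1 ISRE, 2 GAS and 2 Ikaros core matches. Gbp6 had a region inside the gene with folds of 12.3 and 14.4 in WT and mutant pre-B cells and 11.7 and 7.55 in WT and mutant thymocytes. Ifit2 carried several regions along the gene, and the highest was at chr19:34552651-34553202 in WT pre-B cells (fold 9.66) and chr19:34552506-34553192 in mutant pre-B cells (fold 11.2). A weaker one in mutant pre-B cells, chr19:34550479-34551592 (fold 3.14), overlapped the printed Ifit2 window.
Rtp4 had folds of 4.57 and 10.9 in WT and mutant pre-B cells at chr16:23520716-23521131 and chr16:23520664-23521204, a stretch that also belongs to Masp1. Samd9l had folds of 6.53 and 9.61, and a region between Gbp4 and Gbp9, counted for both, 7.59 and 9.54. Nmi, whose protein binds IFI35, was reached in mutant lists only: chr2:51946114-51948152 in pre-B cells (Ikaros fold 18.7), chr2:51946010-51948382 in thymocytes (Ikaros fold 21.3) and chr2:51946285-51948006 in thymocytes with the Aiolos antibody (fold 8.36). These lie beyond the end of Nmi farthest from its start. The level of Nmi was not called in homo at either stage (−0.10 and −0.14). No Ikaros or Aiolos region lay within 5 kb of Mx1, Mx2, Iigp1, Gbp2, Gbp7 or Oas1a in any of the lists.

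**Figure D5:**
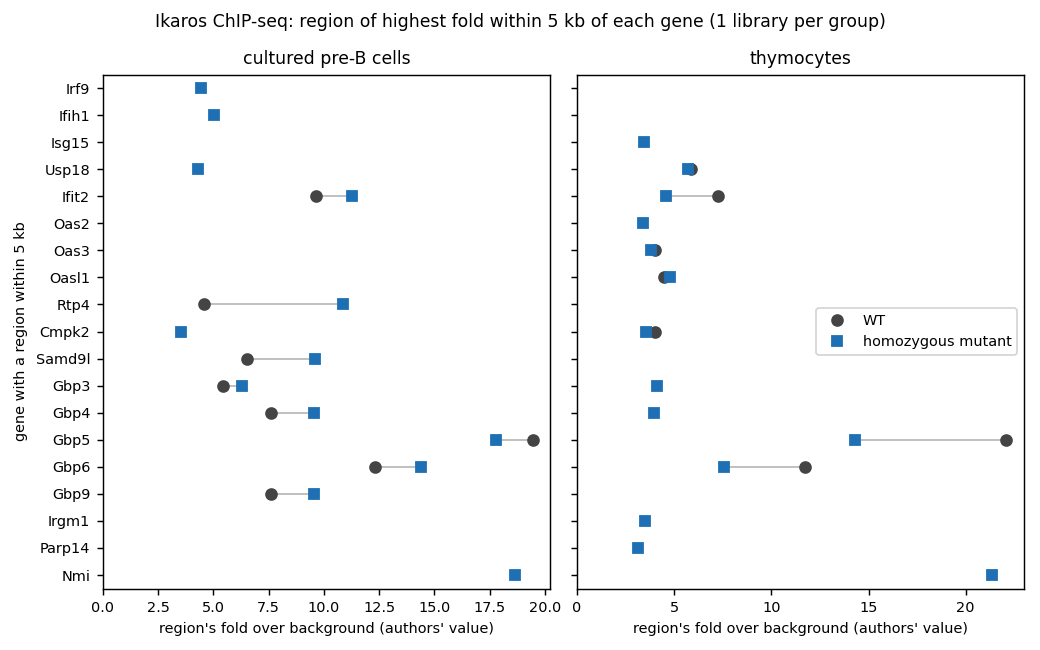
Highest deposited fold over background among Ikaros regions within 5 kb of each gene of the set that has one, in pre-B cells and thymocytes, with WT as circles and mutant as squares, 1 library each. Gbp5 and Gbp6 have regions in all 4 lists and Nmi in the mutant lists.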

How the data were processed

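The authors deposited raw read counts per gene for 18 RNA libraries and peak lists for 8 ChIP libraries. Per the submitters' processing notes, mm10, MACS2 2.1.1, HISAT2 2.1.0 and STAR 2.7.0 were used, in roles not stated. Strand use in counting was not given in the sources used here. Entries that name no gene held 29.85% to 40.15% of a library's counts and were left out. The deposited peak lists hold, per region, a score, a fold (a ratio to the caller's background) and the −log10 of a p-value and of a q-value; the authors' fold and −log10 q-value were used as given.

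Counts were tested in R 4.3.3 with edgeR 4.0.16 (limma 3.58.1): filterByExpr, TMM, robust quasi-likelihood F test, Benjamini-Hochberg over all genes. Genotypes were compared in the 9 libraries of a stage (biological coefficients of variation 8.13% and 16.3%), stages and their interaction in all 18 (12.4%). SE is the log2 fold change over the root of F. DESeq2 1.42.0 was an alternative. Intervals and floors cover counting error only. The code was tested on simulated data. Members and lists were chosen with earlier results of these data known. Values for every library are given for called genes, at most 10 per genotype contrast by adjusted p, the 5 largest WT stage changes each way, and the 3 genes of highest mean CPM per stage. Means are over the 9 libraries of a stage. Called pathway genes are named up to 5 per list. A result of the pathway lists is not reported here. Other genes are given by means or fold. Replicate libraries differed by more than sampling noise. Genes that overlap others in the annotation (Ifit1, Stat2, Isg15, Gbp2, Gbp3, Gbp10, Usp18, Ifih1, Trim30a, Rtp4) or have near-identical copies have less certain counts. Promoter sequences are RefSeq's.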

Additional observations from a re-analysis of the deposited data

Results flagged for a closer look

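The effect of the mutation differed between the stages, by a test of the difference itself (the interaction term, adjusted p under 0.05), in 9 genes for homo and 3 for het. Each value is the log2 effect in pre-B cells minus that in pre-pro B cells. For homo it was −3.99 for Mx2, −3.25 for Mx1, 4.1 for Iigp1, 2.52 for Ifi44, 1.16 for Gbp6, 0.76 for Gbp4, 0.76 for Gbp9, 0.64 for Parp14 and 0.52 for Irgm1. For het it was −1.89 for Mx2, −2.00 for Mx1 and 0.93 for Gbp4.

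Mx1 and Mx2 fell at both stages in homo and fell further in pre-B cells. Iigp1 and Gbp9 rose in pre-B cells and were not called in pre-pro B cells. Ifi44, Gbp4, Gbp6 and Irgm1 fell in pre-pro B cells and had positive log2 fold changes in pre-B cells that were not called (1.15, 0.41, 0.28 and 0.13). The homo differences of Mx1, Mx2, Iigp1, Ifi44 and Gbp4 and the het differences of Mx1, Mx2 and Gbp4 were called in all 19 alternatives that keep both sexes. That of Gbp9 was called in 8, and not with replicate number as a block, that of Irgm1 in 8, that of Gbp6 in 10 and that of Parp14 in 11. In the XX libraries alone, an alternative chosen after seeing the data, the homo difference of Gbp4 was 0.59 (adjusted p = 0.0974), that of Gbp9 0.31 (adjusted p = 0.335) and that of Mx1 −5.31.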

How the results depend on the processing

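Alternatives were run for the 41 genes, not for the other pathway genes. No value of a called gene among the 41 changed direction under any of them. Calls in homo against WT pre-pro B cells went from 22 to 13 with no filter on low counts and to 2 with a chromosomal sex term. They went to 0 with library size as a covariate and to 7 to 16 without 1 library. Over all genes 2730 calls became 2483, 605, 213 and 1112 to 2059 in the same order. Het against WT in pre-pro B cells gave 0 to 5 calls without 1 library, with 0 to 1901 over all genes. Homo against het in pre-pro B cells gave 1 call by DESeq2 and 0 to 11 without 1 library, with 0 to 223 over all genes in the latter. Het against WT in pre-B cells (7 calls) gave 15 with library size as a covariate and 3 to 5 without 1 library. Over all genes 705 calls became 3005 and 336 to 756. Homo against het in pre-B cells (3 calls) gave 6 by DESeq2, 5 with no filter and 10 with library size as a covariate. It gave 7 with all 18 libraries in one fit and 2 to 5 without 1 library. Over all genes 216 calls became 507, 281, 1604, 662 and 52 to 374 in the same order. The interaction gave 5 to 9 calls for homo (9) and 3 to 5 for het (3) without 1 library. Over all genes 1809 calls became 1349 to 2155 for homo, and 703 became 469 to 879 for het. Mutant thymocyte Ikaros regions at a −log10 q-value of at least 5 reached 6 genes in place of 14. The cause was not tested. No set of same-numbered libraries had a correlation of deviations over 0.1 in all pairs. Same-numbered libraries of the 2 stages matched in chromosomal sex in all genotypes, which is automatic in WT, where all were XX. Each correlated best with its own number in 3 of 3 WT and 2 of 3 homo pairs. Among het pairs only replicate 2 did so. These matches are no more than a hint from the data. The labels do not say that stages share mice. The replicate block joined libraries of the same number across all genotypes. Pairs of stages within a genotype were not fitted as blocks. The replicate block gave 21 calls in homo against WT pre-pro B cells and 11 in homo against WT pre-B cells. It gave 3 in het against WT pre-B cells and 3 in homo against het pre-B cells, and 9 for the homo interaction, without that of Gbp9. Over all genes the block gave 2747, 1125, 383, 71 and 1595 calls in the same order. An alternative chosen after seeing the data kept only the XX libraries, 3 WT, 2 het and 1 homo per stage, with the lone homo library assumed to vary like the other groups. Its median log2 fold changes of the set in pre-pro B cells were −0.96 (homo against WT), −0.13 (het against WT) and −0.67 (homo against het). In pre-B cells the same contrasts gave −0.395, 0.03 and −0.37, and the homo and het interactions gave 0.41 and 0.13.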
